A study of Mus musculus with 22 samples.

Results

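The genes described are 9 of the 24421 gene rows in the deposited count tables, the histone H3 lysine 4 (H3K4) methyltransferase family genes Kmt2a, Kmt2b, Kmt2c, Kmt2d, Kmt2e, Setd1a and Setd1b and the bromodomain genes Brd2 and Brd3. They were chosen by symbol, with their levels in dominant and submissive females already known, so the female rank differences are given as a description without a test. All 9 genes passed the filter on low counts in both sexes. Total RNA of the right brain hemisphere was sequenced from 22 mice in 4 groups: the males were 7 dominant and 7 submissive mice, and each female rank had 4. All were group-housed young adult C57B6/J OlaHsd mice, an inbred black strain, for which the labels name no treatment. They were ranked among their cage mates by the tube test, in which one mouse pushes another backwards out of a narrow tube. Each cage gave 1 mouse of either rank, and the replicate number stands for the cage. Cages are named here by that number, as male cages 1 to 7 and female cages 1 to 4. Library names give a cage number for all but female cages 3 and 4, which carry the group labels Gr1 and Gr2. Some females of intermediate rank were regrouped and tested again in the study, and the labels do not tell which sequenced females these were. A hemisphere mixes many regions and cell types, so fewer cells of a type and less RNA per cell cannot be told apart.

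H3K4 methylation marks the promoters and enhancers of genes that are being transcribed or are poised for it. Kmt2a and Kmt2b encode the MLL1 and MLL2 enzymes of promoters and developmental genes, Kmt2c and Kmt2d the MLL3 and MLL4 enzymes that monomethylate enhancers, and Setd1a and Setd1b the SET1 enzymes that place most trimethylation at active promoters. Kmt2e encodes MLL5, which carries the family's SET domain but is thought to lack this enzyme activity. Brd2 and Brd3 belong to the BET family, whose bromodomains bind acetylated histones and recruit the transcription machinery. In the brain, loss of a single copy of several of these methyltransferase genes causes disorders of intellectual development, and Kmt2a and Kmt2b are needed in forebrain neurons for memory formation.

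The promoters of Kmt2a, Kmt2c and Kmt2d are shown as examples from the results that follow: Kmt2d has a large female rank difference, Kmt2c differs between male cages and tables, and Kmt2a appears in all 3 comparisons. The promoter table used, taken from RefSeq (GRCm38.p6), gave windows of 300 bases, from 250 before to 50 after a transcription start, for 6 of the 9 genes and 8 starts in all. The windows below lie on the minus strand at chr9:44881240-44881539 for Kmt2a, chr5:25498734-25499033 for Kmt2c and chr15:98871156-98871455 for Kmt2d, each is written 5′ to 3′, and capitals mark CG dinucleotides.
Kmt2a: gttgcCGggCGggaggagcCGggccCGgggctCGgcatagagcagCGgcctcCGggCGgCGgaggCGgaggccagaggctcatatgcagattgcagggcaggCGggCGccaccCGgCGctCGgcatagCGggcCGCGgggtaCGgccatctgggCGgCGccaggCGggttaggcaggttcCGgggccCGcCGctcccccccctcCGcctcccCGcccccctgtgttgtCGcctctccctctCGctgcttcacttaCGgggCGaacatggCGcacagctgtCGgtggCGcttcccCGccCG
Kmt2c: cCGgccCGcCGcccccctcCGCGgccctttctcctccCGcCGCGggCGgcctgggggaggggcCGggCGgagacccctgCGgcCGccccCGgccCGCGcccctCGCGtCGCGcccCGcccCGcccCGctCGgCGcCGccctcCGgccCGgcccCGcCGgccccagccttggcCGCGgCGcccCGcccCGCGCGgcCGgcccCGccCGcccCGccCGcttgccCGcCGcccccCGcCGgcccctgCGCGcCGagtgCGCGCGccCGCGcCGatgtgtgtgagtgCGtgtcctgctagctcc
Kmt2d: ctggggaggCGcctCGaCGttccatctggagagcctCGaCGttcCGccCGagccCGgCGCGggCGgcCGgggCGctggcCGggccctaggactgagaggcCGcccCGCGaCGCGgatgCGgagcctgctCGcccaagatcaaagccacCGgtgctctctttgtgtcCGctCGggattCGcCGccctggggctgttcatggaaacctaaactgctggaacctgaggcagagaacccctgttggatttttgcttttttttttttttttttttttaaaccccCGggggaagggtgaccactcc
The Kmt2c window held 56 CG dinucleotides, more than 99.8% of all 32851 promoter windows, the Kmt2a window held 36 and the Kmt2d window 27, against a median of 7. The GC box GGGCGG was found on either strand in 6 of the 8 windows of these genes and in 35.7% of all windows. The Kmt2c window held it 10 times, Kmt2a 5 times and Kmt2d 4 times. Neither the CAAT box CCAAT, present in 37.4% of all windows, nor the TATA box TATAAA, present in 13.6%, occurred in any of the 8. Windows of Kmt2b, Kmt2e and Setd1b were not used here.

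All 9 genes were long. The Length column, the number of exon bases over which reads were counted, ran from 5025 bases for Brd2 to 19827 for Kmt2d, while the median of the genes tested was 2953. Kmt2a (16439 bases), Kmt2c (16820) and Kmt2d were longer than at least 99.8% of the genes tested, and the shortest, Brd2, was still longer than 81.1%. In mm10, the build of the files, Kmt2a spans chr9:44803355-44881274 on the minus strand with 36 exon blocks, Kmt2c chr5:25271794-25498783 on the minus strand with 59 and Kmt2d chr15:98831669-98871205 on the minus strand with 55. Of the 7258 exon bases of Kmt2e, 874 overlap exons of Srpk2 on the opposite strand. The strand setting of the counting is not given in the sources used here. Reads in these bases may therefore have been dropped or counted for the wrong gene, and the Kmt2e values are uncertain. Brd3 shares 1 exon base with Mir7578, and the others share none.

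Levels between genes were compared as RPKM, depth-scaled counts per kilobase of the Length column, over all 22 samples. Brd2 was the highest at 24.7 RPKM ± 1.67 (SD, n = 22), followed by Kmt2e at 14.9 ± 2.98 and Kmt2c at 13.5 ± 2.93. Kmt2a had 7.26 ± 1.48 RPKM, Brd3 5.25 ± 0.462, Kmt2d 3.60 ± 0.713, Setd1a 3.47 ± 0.526 and Kmt2b 2.71 ± 0.369. Setd1b was the lowest at 1.04 ± 0.225 RPKM, with 71 to 183 reads per sample. The neighbours Kmt2e and Kmt2c, Kmt2d and Setd1a, and Setd1a and Kmt2b differed by less than the sum of their SDs, and the other neighbours in this order by more. The BET gene Brd2 was also the steadiest, with a coefficient of variation of 6.78% across the 22 samples, against 21.7% for Kmt2c and 21.5% for Setd1b. All further levels are CPM, counts scaled to the library's depth, on 1 scale for the 22 samples, and are compared only within a gene.

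**Figure D1:**
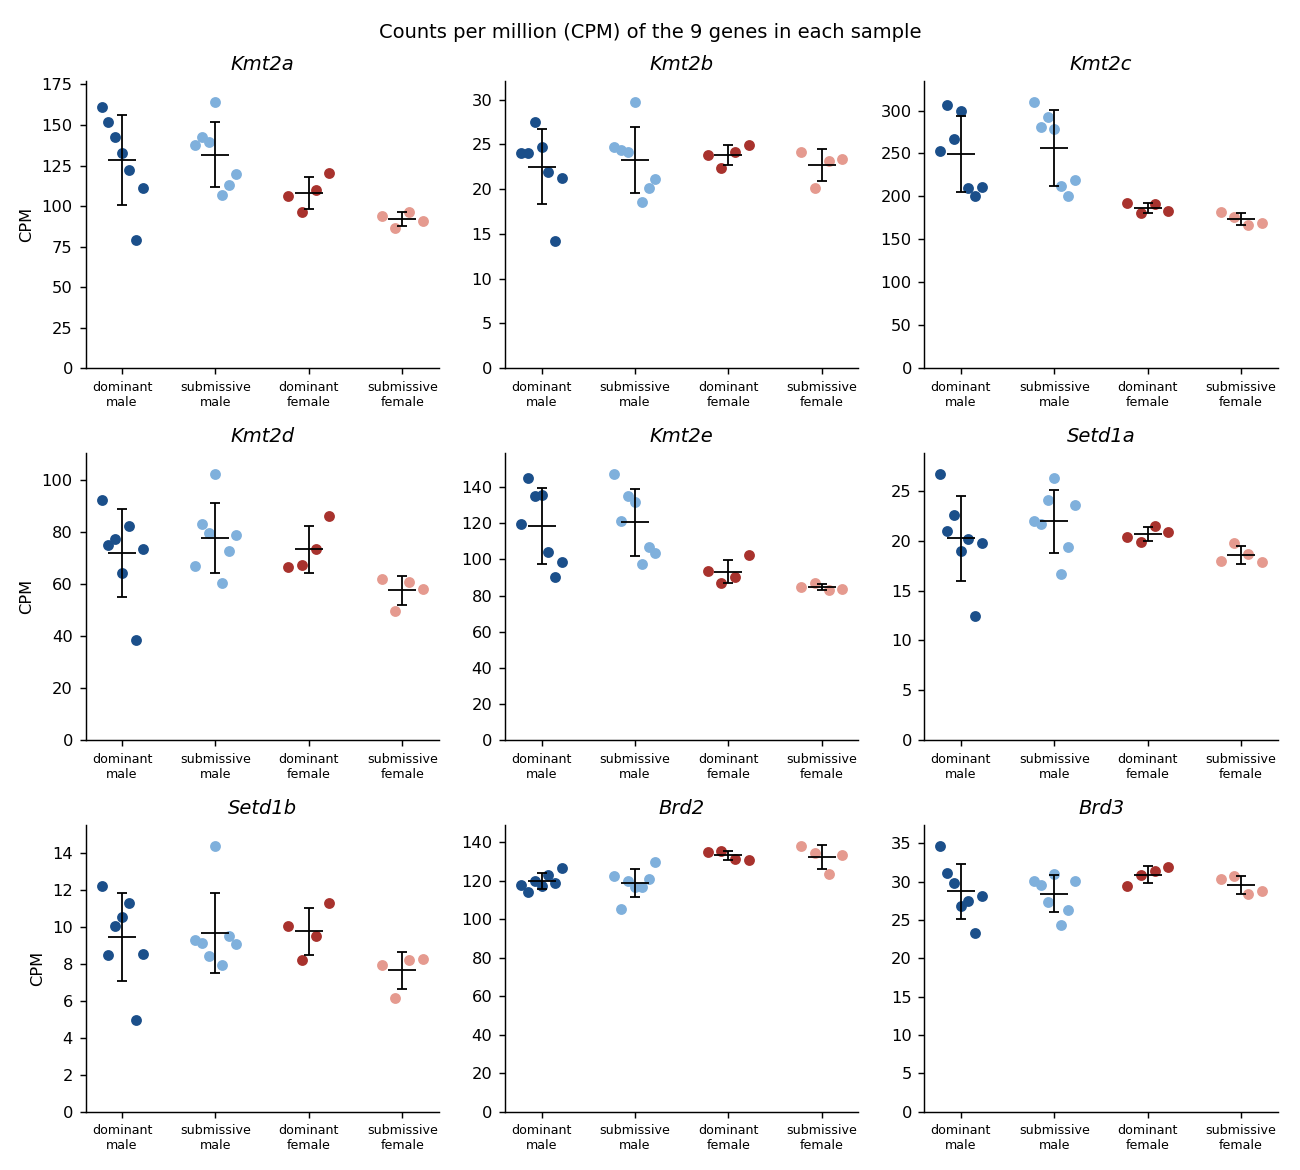
Depth-scaled counts (CPM, y axis from 0) of each gene in the 7 dominant males, 7 submissive males, 4 dominant females and 4 submissive females. Points are samples in order of replicate number, the horizontal line is the group mean and the bar the SD; Kmt2a, Kmt2d, Kmt2e and Setd1a of the dominant females lie above those of the submissive females, while dominant male 6 is the lowest male for every gene but Brd2.

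The first question of the study was how social rank relates to gene expression in the brain of each sex. In females, Kmt2d, the MLL4 enzyme gene, stood at 66.6, 67.4, 73.4 and 86.1 CPM in the 4 dominant mice and 62.0, 49.6, 60.9 and 57.9 CPM in their submissive cage mates. Every dominant female lay above every submissive one, and the fitted log2 difference was 0.34 (SE 0.0717), a fold of 1.27. Kmt2a stood at 105.9, 96.5, 110.2 and 120.4 CPM in the dominant mice, against 94.2, 86.8, 96.2 and 91.0 CPM in the submissive ones. Its groups did not overlap, and its log2 difference was 0.23 (SE 0.0515). Setd1b had 10.02, 8.20, 9.50 and 11.3 CPM against 7.94, 6.13, 8.22 and 8.29 CPM, a log2 difference of 0.34 (SE 0.113), with the dominant mouse of female cage 2 below 2 submissive mice. These 3 genes had the largest differences of the 9. The other SET1 gene, Setd1a, had 20.4, 19.9, 21.5 and 20.9 CPM against 18.0, 19.8, 18.7 and 17.9 CPM (log2 difference 0.15, SE 0.0619), and Kmt2e had 93.8, 87.2, 90.1 and 102.2 CPM against 84.5, 86.9, 83.3 and 83.4 CPM (0.13, SE 0.0433). For both, the groups were separate by a narrow gap, with the lowest dominant female at 19.9 and 87.2 CPM and the highest submissive one at 19.8 and 86.9 CPM.

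The remaining genes differed less between female ranks. Kmt2c, the MLL3 gene, stood at 192, 181.0, 191 and 183 CPM in the dominant mice, against 182, 176, 167 and 169 CPM in the submissive ones, so that the groups overlapped. Its log2 difference was 0.10 (SE 0.0345). Kmt2b had a log2 difference of 0.06 (SE 0.0655), Brd3 of 0.06 (SE 0.0525) and Brd2 of 0.0026 (SE 0.0363), and the groups of each overlapped. Leaving out single females, the log2 difference of Kmt2d ran from 0.26 to 0.38, that of Kmt2a from 0.17 to 0.28 and that of Setd1b from 0.25 to 0.42. Kmt2e went to 0.09 without dominant female 4 and Kmt2b to 0.0064 without submissive female 2, while Brd2 ran from -0.03 to 0.02. Kmt2a and Kmt2b, paralogous enzymes of promoters, thus had unequal values, as did Kmt2c and Kmt2d, although no test of these differences was made. Among the 9 genes, 4 (Kmt2a, Kmt2d, Kmt2e and Setd1a) had every dominant above every submissive female, and 2.93% of the 14865 genes tested did so. Within cages, 6 genes (Kmt2a, Kmt2c, Kmt2d, Kmt2e, Setd1a and Setd1b) were higher in the dominant mouse of all 4, as were 8.72% of the genes tested. Because the genes were selected on this contrast, nothing is read from these counts, from the female SEs or from the fits without single females.

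In males, the rank groups overlapped. Kmt2d ranged from 38.6 to 92.4 CPM in dominant males (median 75.1) and from 60.5 to 102 CPM in submissive males (median 78.9), and the log2 difference was -0.11 (SE 0.140, adjusted p = 1.00). Kmt2a ranged from 78.9 to 161 CPM (median 133) in dominant and from 107 to 164 CPM (median 137) in submissive males, with a log2 difference of -0.04 (SE 0.125, adjusted p = 1.00). Setd1b ranged from 4.96 to 12.2 CPM in dominant males (median 10.1) and from 7.92 to 14.4 CPM in submissive males (median 9.11), with a log2 difference of -0.03 (SE 0.158, adjusted p = 1.00). In edgeR's quasi-likelihood test 0 of the 9 genes passed an adjusted p of 0.05, and the background was 0% of 14737 genes. The smallest unadjusted p of the 9 was 0.355, for Setd1a, and DESeq2 also called 0 of them. Log2 differences of the 9 genes ran from -0.12 for Setd1a to 0.02 for Brd3, and the SEs of the methyltransferase genes, 0.109 to 0.158, were wider than those in females, 0.0345 to 0.113. The signs of several of these small values turned when single males were left out.

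Single males moved several of the genes together. Dominant male 6, from male cage 6, was the lowest of the 14 males in Kmt2a (78.9 CPM), Kmt2b (14.2), Kmt2d (38.6), Kmt2e (90.2), Setd1a (12.5), Setd1b (4.96) and Brd3 (23.3), and in Kmt2c it shared the lowest level with its cage mate (200.7 and 200.8 CPM). Averaged over the 9 genes it lay 0.55 below the male mean on the log2 scale. Submissive male 4, from male cage 4, was the highest male in Kmt2a (164 CPM), Kmt2b (29.7), Kmt2d (102) and Setd1b (14.4), and dominant male 1, from male cage 1, in Setd1a (26.7) and Brd3 (34.7). Brd2 did not share this order, with 118.6 CPM in dominant male 6 and 116.5 CPM in submissive male 4. Submissive male 4 was also not the highest in Kmt2c (278 CPM) or Kmt2e (132 CPM), where submissive male 1 had 309.6 and 147 CPM. Without dominant male 6, the male log2 difference of Kmt2a was 0.06 and that of Setd1b 0.08, and without dominant males 1 and 6 they were 0.0041 and 0.02 (chosen after the data were seen), with 0 of 9 genes called in each case.

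**Figure D2:**
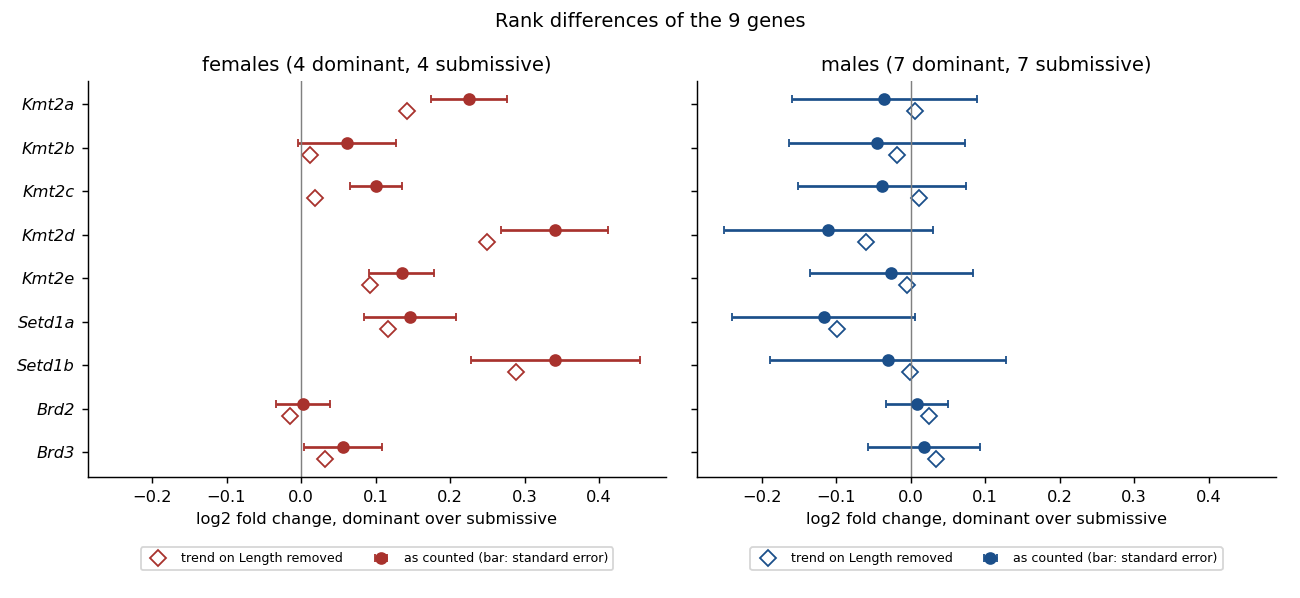
Log2 fold change of dominant over submissive mice (x axis) for each gene, in 4 against 4 females (left) and 7 against 7 males (right). Filled circles with bars are fitted values with their standard error and open diamonds are the values after each sample's trend on Length was removed; in females Kmt2d and Setd1b stand near 0.34 and remain at 0.25 and 0.29, whereas the male values lie between -0.12 and 0.02.

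Because all 9 genes are long, the trend of each sample on the Length column was followed next. Over 15233 genes in 20 bins of length, the median log2 difference of dominant minus submissive females went from -0.03 at a median of 594 bases to 0.07 at 9530 bases. In males it went from 0.0069 to -0.03. Slopes on Length, in log2 units per doubling, averaged 0.0093 ± 0.0087 (SD, n = 4) in dominant and -0.0093 ± 0.0059 in submissive females, and -0.0028 ± 0.0248 in dominant and 0.0028 ± 0.0193 in submissive males (n = 7 each). Averaged over the 9 genes, the trend accounted for 0.06 of the female and -0.03 of the male difference. Dominant male 6 had the lowest slope of all samples, -0.0427, and dominant male 2 the highest, 0.0358.

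With the trend on Length removed, most female differences were smaller. The female log2 difference of Kmt2c went from 0.10 to 0.02, and that of Kmt2d, the longest gene, from 0.34 to 0.25. Kmt2a went from 0.23 to 0.14, Kmt2e from 0.13 to 0.09, Setd1a from 0.15 to 0.12 and Setd1b from 0.34 to 0.29. Kmt2b (0.01), Brd3 (0.03) and Brd2 (-0.01) were then close to 0. Setd1b, at 8858 bases, and Kmt2b, at 8484 bases, are of similar length and had female differences of 0.34 and 0.06, values that are given as a description only. What underlies the trend was not tested.

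**Figure D3:**
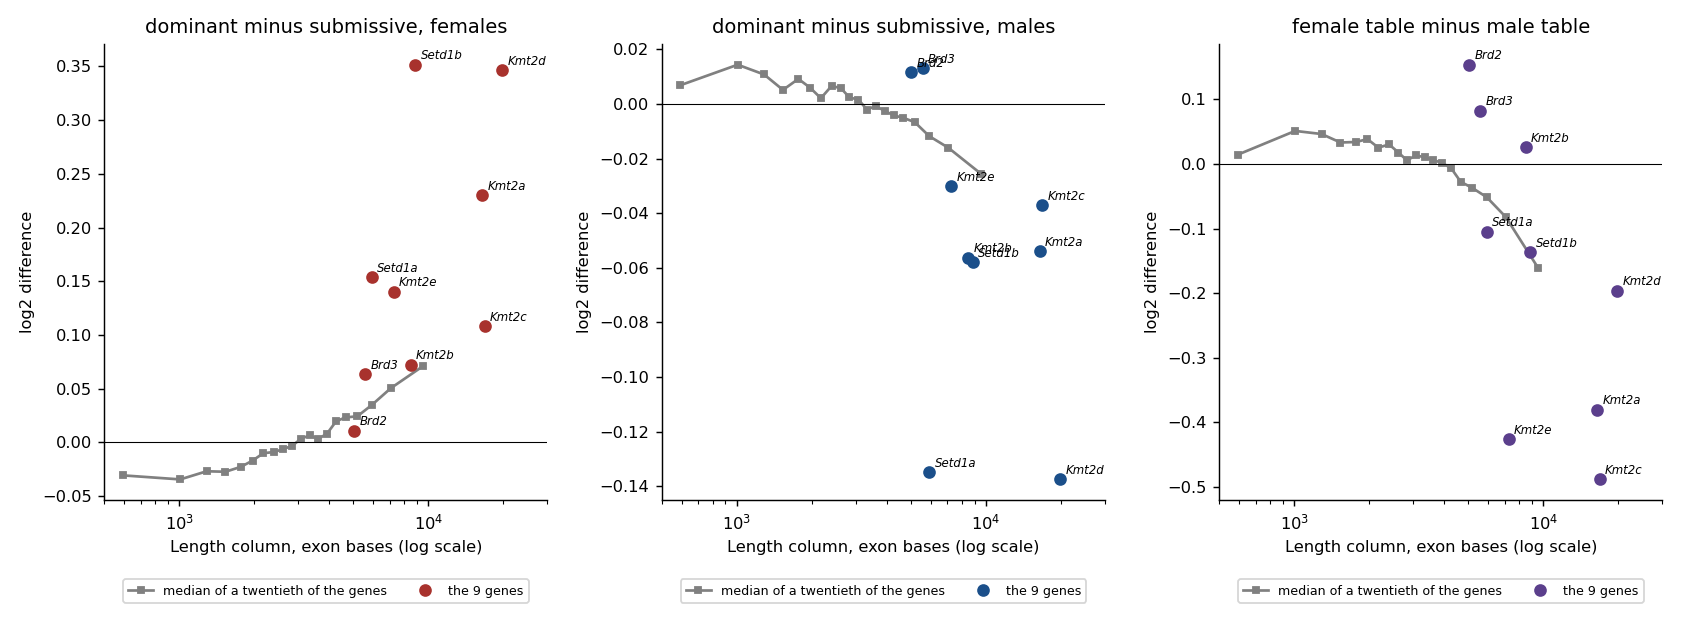
Log2 difference (y axis, a scale of its own in each panel) against the Length column in exon bases (log x axis), for dominant minus submissive females, dominant minus submissive males and female minus male table. Grey squares are medians of 20 equal bins of genes and coloured points the 9 genes (fitted values in the third panel); grey medians rise with length to 0.07 in the female panel and fall to -0.03 and -0.16 in the other panels, and Kmt2d and Setd1b lie above the grey line in females while Brd2 lies above it between the tables.

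Cages were compared next, since the 2 mice of a cage were housed and killed together. Library names also number the samples cage by cage, with cage mates next to each other. Cage and library order therefore cannot be told apart. In males, Kmt2c differed between cages (adjusted p = 0.00273, F test of edgeR over 7 cages). Its levels were 252 and 309.6 CPM in male cage 1 (dominant, then submissive), 306 and 280.3 in cage 2, 267 and 293 in cage 3 and 299.7 and 278 in cage 4. They were 209.6 and 212 CPM in cage 5, 200.7 and 200.8 in cage 6 and 211 and 219 in cage 7. All 8 mice of cages 1 to 4 were above all 6 mice of cages 5 to 7, a reading made after the values were seen and not tested. Kmt2e (adjusted p = 0.0166) had 119.8 to 147 CPM in the first 4 cages and 90.2 to 107 CPM in the last 3, and Kmt2a (adjusted p = 0.0422) had 133 to 164 CPM and 78.9 to 122 CPM. In all, 3 of the 9 genes passed the cage test in males, and the background was 5.89% of 14737 genes.

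The other genes did not pass the cage test in males. Kmt2b, with 24.0 to 29.7 CPM in cages 1 to 4 and 14.2 to 21.9 CPM in the others, had an adjusted p of 0.0705, and it passed with DESeq2 (0.0347). Kmt2d (adjusted p = 0.582), Setd1b (0.404), Brd2 (0.283), Setd1a (0.238) and Brd3 (0.211) did not pass either. In cage 6 the dominant mouse had 38.6 and the submissive mouse 72.7 CPM of Kmt2d, while Kmt2c was equal at 200.7 and 200.8 CPM. The slopes on Length followed the same line, being above 0 in all 8 mice of cages 1 to 4 (0.0040 to 0.0358) and below 0 in all 6 of cages 5 to 7 (-0.0427 to -0.0062). With the trend on Length removed, 0 of the 9 genes passed the cage test (adjusted p = 0.248 for Kmt2c, 0.0626 for Kmt2e and 0.521 for Kmt2a), against a background of 3.78%. Leaving out 1 cage at a time left 1 to 4 of the 9 genes called, while 2.54% to 12.5% of all genes were. The 4 came without cage 1 (12.5% of all genes) and the 1 without cage 7 (2.87%). Kmt2a no longer passed without cage 2, 3, 5, 6 or 7, and of the 9 genes only Kmt2c passed without cage 7.

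**Figure D4:**
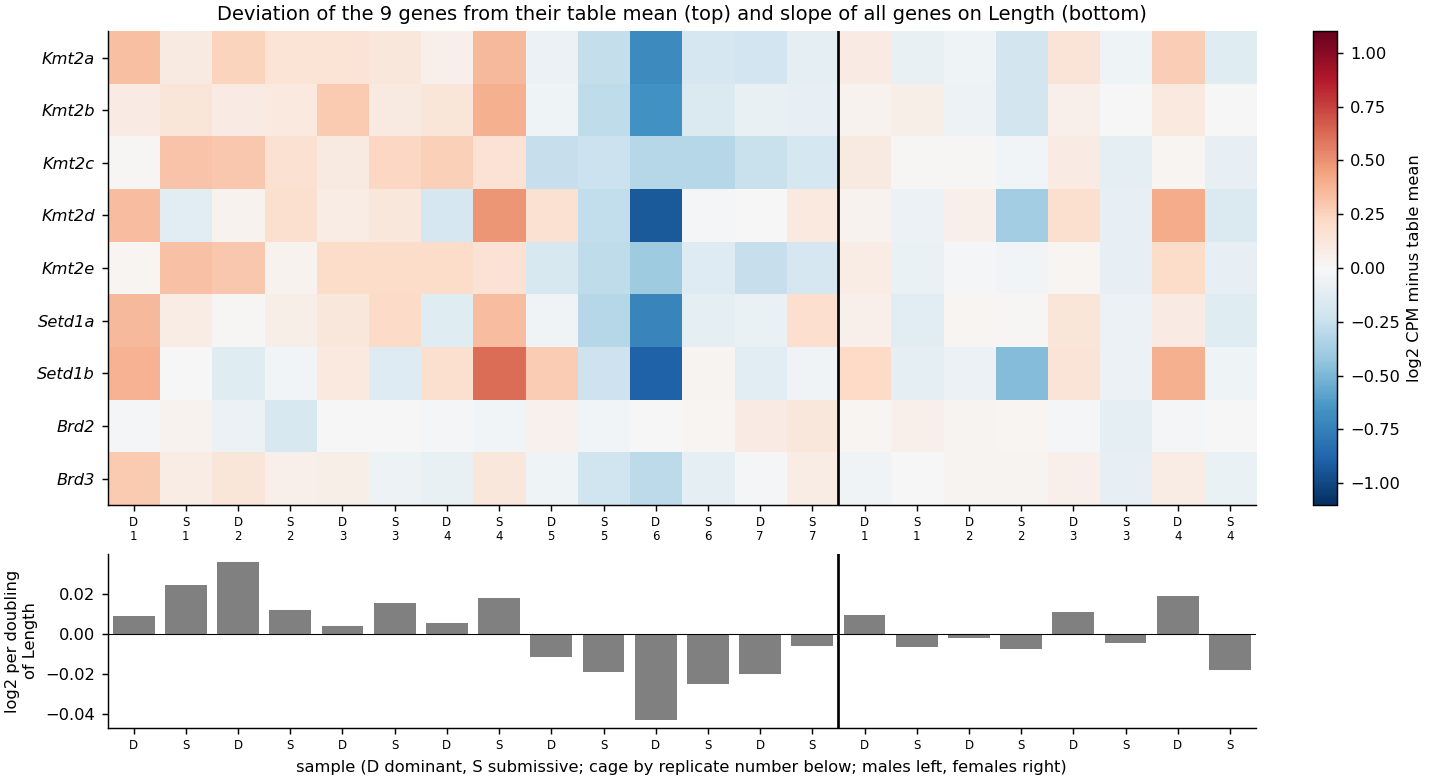
Top, log2 CPM of each gene minus its mean over the samples of the same table (colour) for each sample, ordered by cage with the dominant (D) before the submissive (S) mouse, males to the left of the line and females to the right. Bottom, the slope of all genes on Length in each sample, in log2 units per doubling; slopes are above 0 in male cages 1 to 4 and below 0 in male cages 5 to 7, where Kmt2c and Kmt2e are also low in every mouse.

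In females, no cage effect was detected on the 9 genes. The F test over the 2 cages and 2 groups called 0 of 9, with a background of 0.074% of 14865 genes, and DESeq2 also called 0. At an unadjusted p under 0.05 stood 3 of the 9 genes, and 5.11% of all genes, Kmt2a (adjusted p = 0.887), Kmt2d (0.884) and Setd1b (0.917). Dominant and submissive mice averaged 58.5 CPM of Kmt2d in female cage 2, 64.3 in cage 1, 67.1 in Gr1 and 72.0 in Gr2. The comparison of the 2 groups with the 2 numbered cages likewise called 0 of 9 genes in edgeR and in DESeq2, with a background of 0.00673%, and Kmt2d (log2 difference 0.17, SE 0.0616, adjusted p = 0.827) and Kmt2a (0.12, SE 0.0447, adjusted p = 0.848) were the 2 with an unadjusted p under 0.05, as had 5.54% of all genes. Whether the group labels mark the regrouped females is not stated in the labels.

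The 2 tables hold 1 sex each, and the libraries of each carry their own name prefix, so that sex, table and library series cannot be told apart. Kmt2c ranged from 200.7 to 309.6 CPM in the 14 males (median 260) and from 167 to 192 CPM in the 8 females (median 181). Every female lay below every male, as was so for 2.07% of the 15233 genes tested. None of the 9 genes had every female above every male, which held for 4.03% of genes. For Kmt2c the log2 difference of the female to the male table was -0.49 (SE 0.0808, adjusted p = 2.81e-05). Kmt2e (90.2 to 147 CPM in males, median 121, and 83.3 to 102.2 CPM in females, median 87.0) had a difference of -0.43 (SE 0.0792, adjusted p = 0.000118). Kmt2a (78.9 to 164 CPM in males, median 135, and 86.8 to 120.4 CPM in females, median 96.3) had -0.38 (SE 0.0934, adjusted p = 0.00208). Their ranges overlapped. Brd2 went the other way, with 105.3 to 129.8 CPM in males (median 119) and 123 to 138 CPM in females (median 134) and a difference of 0.15 (SE 0.0301, adjusted p = 0.000212). These SEs and p-values take the 2 mice of a cage as independent. With their counts summed per cage, a setting chosen after the data were seen, the units were 7 male and 4 female cages, and Kmt2c was at -0.50 (adjusted p = 0.00148), Kmt2e at -0.43 (0.00219), Kmt2a at -0.39 (0.00907) and Brd2 at 0.15 (0.00771). The other 5 genes did not pass in that setting either.

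Of the 9 genes, 4 thus passed this comparison, 3 lower in the female table against a background of 17.9% and 1 higher against 18.6% (36.5% of genes in both directions). Kmt2d (-0.20, adjusted p = 0.177), Setd1b (-0.14, 0.408), Setd1a (-0.10, 0.383), Brd3 (0.08, 0.232) and Kmt2b (0.03, 0.839) did not pass, although Kmt2d did without dominant male 6 (-0.27, adjusted p = 0.0108). In that fit Setd1a was at -0.16 (0.0583), Setd1b at -0.21 (0.0955) and Brd3 at 0.05 (0.428). Without submissive male 4, Setd1b was at -0.09 (0.569). Males of male cages 5 to 7 were nearer to the females, with 200.7 to 219 CPM of Kmt2c. Between the tables the median log2 difference also fell with length, from 0.05 at 1008 bases to -0.16 at 9530 bases, with 0.01 in the shortest bin. With this trend removed over both tables, a setting chosen after the data were seen, Kmt2c was at -0.25 (adjusted p = 9.85e-06), Kmt2e at -0.32 (6.71e-05), Kmt2a at -0.15 (0.036) and Brd2 at 0.20 (4.43e-05). Brd3 then passed at 0.14 (0.0135), and Kmt2d turned to 0.04 without passing (0.748). In the same setting Kmt2b was at 0.16 (0.0509) and Setd1b at -0.00035 (0.999).

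Over all samples, Kmt2a had an r of 0.72 or more with each of the genes but Brd2. In the 8 females alone this did not hold, with an r of Kmt2a of -0.02 with Kmt2c, 0.17 with Setd1a and 0.12 with Brd3. With the trend on Length removed r of Kmt2a and Kmt2c was 0.02, and without dominant male 6 r of Kmt2a and Setd1b was 0.64. These are Pearson's r with group means removed, and over the 22 samples r was 0.93 between Kmt2c and Kmt2e and 0.92 between Kmt2a and Kmt2b. It was 0.87 between Kmt2a and Setd1a, 0.86 between Kmt2d and Setd1a, 0.88 between Kmt2d and Setd1b and 0.89 between Setd1a and Brd3, while the enhancer enzyme genes Kmt2c and Kmt2d had an r of 0.31. Brd2 had r values from -0.35 to 0.02 with the other 8 genes. Cage mates share a cage and each sample shares its depth and length trend, so these values describe the samples only. Without dominant male 6, r of Kmt2d and Setd1b was 0.77, r of Kmt2c and Kmt2e 0.92 and r of Kmt2c and Kmt2d 0.098. With the trend on Length removed, Kmt2c and Kmt2e stayed at 0.73 and Kmt2d and Setd1b at 0.81, whereas Kmt2c and Kmt2d went to -0.50. In the 8 females alone, r of Kmt2c and Kmt2e was 0.09 and that of Kmt2d and Setd1b 0.83. There it was -0.19 between Kmt2d and Setd1a, -0.22 between Kmt2c and Kmt2d, 0.47 between Setd1a and Brd3 and 0.75 between Kmt2a and Kmt2b.

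**Figure D5:**
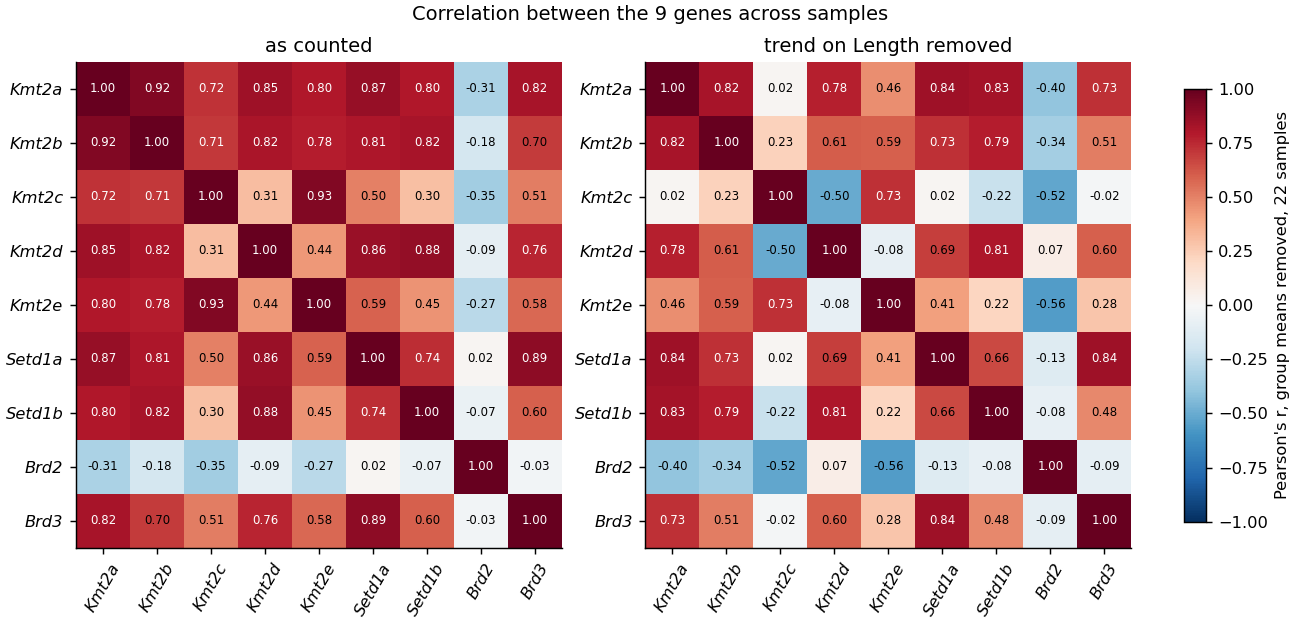
Pearson's r between the 9 genes across 22 samples, with group means removed, as counted (left) and with each sample's trend on Length removed (right). Colour and number give r; Kmt2c keeps 0.73 with Kmt2e but goes from 0.31 to -0.50 with Kmt2d, and Brd2 has no r above 0.07 with another gene in either panel.

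Within groups, the slope on Length had an r of 0.91 with Kmt2e, 0.89 with Kmt2c and 0.88 with Kmt2a over the 22 samples, of 0.58 with Kmt2d and 0.50 with Setd1b and of -0.33 with Brd2. Each sample's slope on GC content had an r of -0.77 with Kmt2c, -0.71 with Kmt2e and -0.27 with Kmt2a. Its r with the other genes ran from -0.30 (Kmt2b) to 0.34 (Brd2). The 5 genes outside the 9 whose profile was most like the mean of the 9 were Nav1, a neuronal microtubule-binding gene (r = 0.98), Srcap, a chromatin remodeller (0.96), D630045J12Rik (0.96), Eif4g3, a translation initiation factor (0.96), and Cacna1e, a calcium channel (0.96). Their lengths were 6325 to 12767 bases. With the trend on Length removed their r was 0.91 to 0.94.

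Genes of the same pathways were taken from 6 lists with 96 genes, all of which passed the filter. In edgeR, 0 of them passed for rank in males and 0 in females, where the background was 0.0942% (14 of 14865 genes, and 36 with the cage as a replicate block). An unadjusted p under 0.05 was found for 1 of them in males (1.04%, against 1.32% of all genes) and for 12 in females (12.5%, against 10.5%). DESeq2 called 0 in males and 2 in females (2.08%, against 0.518% of all genes), the acetyltransferase Crebbp and the H3K4 monomethyltransferase Setd7, named after their values were seen. Subunits of the H3K4 methyltransferase complexes, which the enzymes need for full activity, had a median female log2 difference of 0.02 over 16 genes, and -0.0035 in males. Psip1, a chromatin tether of MLL1, was at 303 ± 11.9 CPM in the dominant and 304 ± 10.5 CPM in the submissive mice among the females (SD, n = 4 each), Wdr82, a SET1 subunit, 225 ± 9.23 and 223 ± 4.49, and Tasp1, the protease that cleaves MLL1, 101.5 ± 2.91 and 105 ± 2.25. None of the 3 passed for rank in females (adjusted p of 0.933, 0.957 and 0.632).

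Lists that oppose or parallel the methyltransferases were described next, and no test compared the lists. In females an unadjusted p under 0.05 was found for 0 of the 10 demethylase and corepressor genes and 0 of the 15 elongation genes, and for 2 of the 9 acetyltransferases, 4 of the 20 other histone methyltransferases and 5 of the 26 other bromodomain genes, beside 10.5% of all genes. DESeq2 called 0, 0, 1, 1 and 0 in these lists, in the same order. The 10 histone demethylase and corepressor genes had median log2 differences of 0.02 in females and -0.0083 in males, with Kdm1a at -0.03 in females, Kdm5b, which like Kdm1a acts on H3K4, at 0.0092 and Kdm2a, known for H3K36 demethylation, at 0.05. The 15 transcription elongation genes had medians of 0.03 and -0.0031, and Aff4, Ccnt2 and Cdk13, the highest of them per length, had female differences of 0.02, 0.06 and 0.06. The 9 acetyltransferases had 0.03 and -0.04, the 20 other histone methyltransferases 0.05 and -0.02 and the 26 other bromodomain genes 0.05 and -0.0075. Over all genes tested, the median was -0.0020 in females and -0.0015 in males. Of the highest genes per length, Kat5, Kat6b and Kat7 had female differences of 0.0080, -0.03 and 0.03, Smyd2, Nsd1 and Ehmt2 of -0.03, 0.06 and 0.0091, and Zmynd11, Smarca2 and Trim28 of -0.02, 0.07 and -0.07, none of them past an adjusted p of 0.05. In the cage test in males 18 of the 96 genes passed (18.8%, against 5.89% of all genes), 6 of them among the other histone methyltransferases. In the female table, 18 were higher (18.8%, against 18.6% of all genes) and 29 lower (30.2%, against 17.9%) than in the male table, and among the latter Nsd1, a H3K36 methyltransferase, was at -0.26 (adjusted p = 3.60e-06), while Kdm1a, the demethylase LSD1, was higher at 0.27 (1.31e-08).

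Samples held 12403943 to 16488762 counted reads, and replicates differed by more than sampling noise in all 54 pairs within groups. Markers of brain cells were present as the tissue label has it, and none of the 8 neuron, 6 astrocyte, 6 oligodendrocyte and 6 microglia markers was at 0 throughout a group. Marker sums moved with the 9 genes in part. The 6 cerebellar markers summed to 194 CPM in dominant male 1, against 483 to 749 CPM in the other males and 607 to 888 CPM in females, and dominant male 6 had 749. Submissive male 4 had the lowest sums of males in the 5 choroid plexus markers (461 CPM) and the 5 endothelial markers (166 CPM), and dominant male 6 had 1949 CPM of astrocyte markers, the highest of dominant males. With group means removed, r of the mean of the 9 genes with the astrocyte sum was -0.62 and with the endothelial sum -0.59 over 22 samples, and 0.13 and -0.49 in the 8 females. With the neuron sum it was -0.04 over 22 samples and 0.86 in the 8 females (0.85 for Kmt2e and 0.77 for Kmt2a), where that sum was 5124 to 5407 CPM in dominant and 5123 to 5261 CPM in submissive mice. All 5 choroid plexus markers had a female rank difference below 0 (median -0.30). The blood and pituitary markers summed to 22.6 CPM in submissive female 3 and to 1.26 to 3.41 CPM in the other 21 samples, with Hbb-bs at 0 in all samples. Of these 6 markers only 1 passed the filter on low counts in each sex, so the sum is not read as an amount of blood. The part of these cells in the differences was not tested.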

How the data were processed

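Total RNA of right brain hemispheres from 22 mice was sequenced as stranded, ribosomal RNA-depleted libraries. The values are raw counts per gene, deposited by the authors as 1 table per sex. The counts were made with featureCounts 1.6.2 on an iGenomes annotation, after trimming (cutadapt 1.15, bbduk) and alignment to mm10 (STAR 2.6.0a). Handling of multi-mapping reads and the strand setting are not given in the sources used here.

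The 9 genes and all gene lists were chosen with earlier results of these data known. Named besides the 9 are, per list, the 3 genes of highest RPKM and any called for rank, and the 5 genes whose profile is most like theirs. Genes shown after their values were seen are said to be so. A further gene is not reported here. CPM used TMM factors (edgeR 4.0.16, R 4.3.3). Genes passed edgeR's filter (minimum count 10, total 15) and were tested with its quasi-likelihood test over all genes, with Benjamini-Hochberg adjustment at 0.05. SEs are the size of the log2 fold change divided by the square root of F. Rank was tested within sex, cages by an F test over all cages of a sex, group labels within females and tables over all 22 samples with rank as a term; log2 CPM has a prior count of 2. Trends on Length and on GC content (known for 95.6% of genes, from GENCODE M21 transcripts of the same build) are loess fits (span 0.3) to each sample's deviation from its table's mean and were removed as offsets. Rank, group label and table tests used the spread between individual mice and took cage mates as independent, save where counts were summed per cage. Cage tests set differences between cages against the spread left between cage mates.

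Alternatives were DESeq2 1.42.0, its size factors, no filter, removal of either trend, the replicate block, all samples in 1 fit leaving out samples or cages and, for tables, counts summed per cage. The tests were tried on simulated counts drawn independently for each mouse and without a trend on Length. That check does not cover the likeness of cage mates or the trend. Replicate numbers pair the samples because library names give the same cage to both mice. Deviations from group means of cage mates correlated on average by 0.158 in males, against -0.026 for other pairs, and by 0.021 against -0.007 in females.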

Additional observations from a re-analysis of the deposited data

Results flagged for a closer look

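Setd1b gave the 2 values that stood apart from their group by Dixon's ratio, among 36 sets of values (9 genes in 4 groups), where chance flags about 1 in 20. In submissive males, submissive male 4 had 14.4 CPM, while the other 6 had 7.92 to 9.52 CPM. In submissive females, submissive female 2, from female cage 2, had 6.13 CPM, while the other 3 had 7.94 to 8.29 CPM. Setd1b is the lowest of the 9 genes, with 71 to 183 reads per sample. Without submissive male 4 the male rank difference of Setd1b was 0.09 on the log2 scale, in place of -0.03.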

How the results depend on the processing

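The count of genes called for rank in females, 14, depended on the processing. It was 77 with DESeq2, 84 without a filter, 0 with the trend on Length removed, 28 with the trend on GC content removed, 0 with all 22 samples in 1 fit and 0 to 77 when single females were left out. With the replicate block it was 36, with the block and the trend on Length removed 8, and with the block and GC content 46; the block changed no call of the 9 genes in males. The cage count in males, 868, was 557 with the trend on Length removed, 1354 without male cages 1 and 6 (chosen after the data were seen) and 375 to 1841 without single cages. The cage count in females, 11, was 5 with DESeq2, 99 without a filter and 2 to 31 without single cages. The count for group labels, 1, was 2 with DESeq2, 20 without a filter, 2 with the trend on Length removed, 0 with that on GC content removed and 0 to 6 without single females. The rank counts in males and the interaction stayed at 0, and the table count stayed within 1.5 times of 5560, in all alternatives run. Male rank differences, all near 0, turned sign with the trend on Length removed for Kmt2a (0.0061) and Kmt2c (0.011, and 0.011 with the replicate block). Without dominant males 1 and 6 they turned for Kmt2a (0.0041), Kmt2b (0.041), Kmt2c (0.014), Kmt2e (0.039) and Setd1b (0.024). Leaving out single males, they ran from -0.097 to 0.056 for Kmt2a, -0.10 to 0.042 for Kmt2b, -0.094 to 0.014 for Kmt2c, -0.081 to 0.031 for Kmt2e, -0.10 to 0.085 for Setd1b, -0.18 to -0.0024 for Kmt2d, -0.20 to -0.025 for Setd1a (both nearest 0 without dominant male 6), -0.018 to 0.031 for Brd2 and -0.032 to 0.064 for Brd3. Group label differences turned for Setd1a with the trend on GC content removed (-0.014), and without single females they ran from -0.0053 to 0.050 for Setd1a, -0.025 to 0.050 for Kmt2e and -0.042 to 0.0066 for Brd3. In the same fits they ran from 0.11 to 0.25 for Kmt2d and from 0.080 to 0.16 for Kmt2a. Between tables, Kmt2d turned to 0.044 with the trend on Length, and Kmt2b to -0.039 with that on GC content, removed over both tables, and Kmt2b ran from -0.028 to 0.049 without single samples. The cause of these changes was not tested. With 4 females per rank and 71 to 183 reads per sample for Setd1b, small differences of the low genes are not resolved.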
